A study of Mus musculus with 16 samples.

Results

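Glomeruli isolated from diabetic mice were compared with glomeruli isolated from control mice, gene by gene, over the whole glomerular count table. The comparison used every library labelled as glomeruli, 8 of the 16 libraries of the series, with 4 control and 4 diabetic libraries. The other 8 libraries, of renal cortex, served here for levels alone. All mice were wild type (WT), aged 24 weeks, and carry the batch label 1. The diabetic group is labelled HFD/STZ, in common use a high-fat diet with streptozotocin, a toxin that kills the insulin-making beta cells. The control group received neither, as far as its label tells, so effects of the diet, of the toxin and of the diabetic state cannot be told apart. The labels name no sex, and do not say that the libraries came from separate mice, so each p-value rests on the spread between these libraries, part or all of which may be technical.

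Libraries held 36339294 to 41876031 counts. Control libraries 3 and 4 formed a near-identical pair. Their counts differed by a chi-square of 2.39 per gene, against 35.0 to 64.4 for the other control pairs, and 0.00872% of genes with at least 100 counts in both differed by more than 2-fold. Diabetic libraries 1 and 4 formed another, at 5.36 per gene against 50.4 to 74.0, with 0.0326% of genes over 2-fold. Both pairs still differed by more than counting noise. Each pair was summed and counted as 1 sample, which left 3 control samples (1, 2 and 3+4) and 3 diabetic samples (1+4, 2 and 3). Levels are CPM, read counts scaled to 1000000 per library with TMM factors, and log2 differences are diabetic over control ± SE.

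The labelled tissue was checked against cell type markers. Summed over 16 podocyte markers, control samples stood at 803 to 1038.5% of the level in control cortex, and diabetic samples 1+4, 2 and 3 at 734, 693 and 440% of diabetic cortex. The podocyte sums lay apart, at 7462 to 9646 CPM in control and 6499, 6136 and 3894 CPM in diabetic glomeruli, with 5 markers called lower and 1 higher. Endothelial markers were at 1116 to 1650 CPM in control and 1605, 1346 and 800.45 CPM in diabetic glomeruli, with overlapping groups. Smooth muscle and renin cell markers were far above cortex in the controls, at 18023 to 20528 CPM (8563 to 9753% of control cortex), and stood at 3665, 4285 and 6605 CPM in the diabetic samples. The mesangial sum also lay apart, at 1419 to 1651 CPM in control and 865, 792 and 788 CPM in diabetic glomeruli, with 4 of 9 markers called lower. The sum of 9 parietal epithelium markers was at 1373 to 1723 CPM in control and 1996, 2304 and 1971 CPM in diabetic glomeruli, with 3 called higher and 3 lower (3 and 0 with library totals). Of 2 genes chosen here after their values were seen, the smooth muscle actin gene Acta2 was at 8936 to 10382 CPM in controls against 27.8 CPM in control cortex, and Fn1, which encodes fibronectin, was at 20632 to 32082 CPM against 46.8 CPM. How the glomeruli were kept between isolation and RNA extraction is not given in the sources used here, so it cannot be told whether these are levels of fresh tissue. Diabetic samples 1+4, 2 and 3 were at 8316, 9684 and 18776 CPM for Fn1, which missed the threshold (-1.01 ± 0.36, edgeR adjusted p = 0.0661) and was called lower without diabetic sample 3 (-1.43, edgeR adjusted p = 0.0105). With all samples kept, Fn1 was called lower by DESeq2 (DESeq2 adjusted p = 0.00654). EdgeR on separate libraries also called it, without and with a replicate block (edgeR adjusted p = 0.0142 and 0.0157). The other alternatives did not call it. Cortex levels come from a table made with another annotation and other counting, so a level can differ between the tissues for that reason alone. In bulk RNA, fewer cells of a type and less RNA per cell cannot be told apart.

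Tubule markers set diabetic sample 2 apart from the other diabetic samples. The 25 proximal tubule markers summed to 257 to 298 CPM in controls but to 1997, 335 and 1087 CPM in diabetic samples 1+4, 2 and 3, which is 5.09, 0.853 and 2.77% of their level in diabetic cortex. The 20 markers of the distal nephron and collecting duct summed to 108 to 129 CPM in controls and to 2363, 177 and 1091 CPM, or 32.3, 2.42 and 14.9% of diabetic cortex. Sample 2 lay above the controls and far below the other diabetic samples for both lists, and taken alone it had 1 of 25 proximal and 5 of 20 distal markers called higher. Sample 3 also had the lowest podocyte sum and, at 749 CPM, the highest diabetic sum of 15 macrophage and myeloid markers (372 and 259.5 CPM in samples 1+4 and 2), a level within the control range of 322 to 772 CPM. The transcript Xist, like Ddx3y chosen after its values were seen, is made from the inactive X chromosome. It was at 6.63 to 12.3 CPM in control and 61.8, 7.53 and 25.6 CPM in diabetic glomeruli, while the Y-linked Ddx3y was at 74.4 to 109 CPM in all 6 samples.

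**Figure D1:**
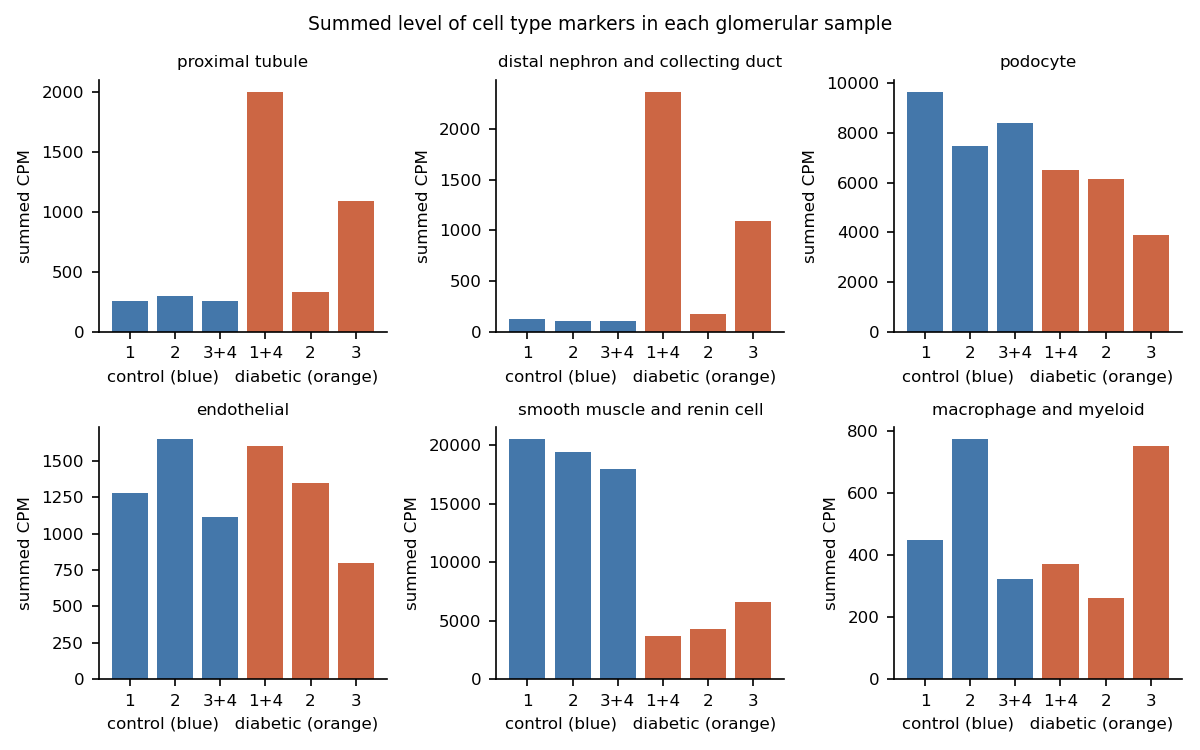
Summed CPM of 6 marker lists (y axis, linear from 0) in each of the 3 control samples (blue) and 3 diabetic samples (orange), 1 bar per sample. Tubule markers are high in diabetic samples 1+4 and 3 and near the controls in sample 2, whereas smooth muscle and renin cell markers are below the controls in all 3 diabetic samples.

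A glomerulus is a tuft of capillaries held by mesangial cells, wrapped by podocytes and enclosed by the parietal epithelium of its capsule. Podocytes and endothelial cells share a basement membrane rich in type IV collagen, laminin and heparan sulfate, through which plasma is filtered. In diabetic kidney disease this tuft is known for mesangial matrix expansion, podocyte loss and a thicker basement membrane.

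Of 15238 genes tested, 5717 were called in either direction (37.5%), 2950 of them higher (19.4%) and 2767 lower (18.2%) in diabetic glomeruli (edgeR quasi-likelihood test, Benjamini-Hochberg adjusted p under 0.05). Every diabetic sample lay above every control sample for 26.6% of genes and below for 27.6%. Calls with such groups numbered 5632 (37.0%). Counts of list members called, given below, stand against the 19.4% higher and 18.2% lower of all genes. Diabetic sample 2 taken alone against the controls, which assumes that it varies like them, called 1356 genes higher (8.56%) and 937 lower (5.92%) of 15835. The median log2 difference over all genes was 0.01. Scaling by library totals moved that median to 0.20 and the higher share of calls from 51.6 to 72.55%, so small log2 differences depend on the scaling.

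Each called increase was sorted by the rise above the control mean in sample 2, as a percentage of the mean rise in samples 1+4 and 3. For 2213 of the 2950 genes called higher (75.02%) that percentage was over 75, for 486 (16.5%) it was 25 to 75, and for 251 (8.51%) it was under 25. Cortex levels followed the same order: the diabetic cortex mean exceeded the diabetic glomerular mean for 29.0, 69.1 and 98.0% of the genes in these classes that could be joined. The 33 tubule markers called higher had a median of 1.37% (range -1.03 to 145.9%), against 114% (range -2.13 to 320.1%) over all genes called higher. On either side of the 25% limit stood Ndrg1 (23.7%) and Kctd12 (23.6%), and Cyp2j6 (26.3%) and Pgap6 (26.8%). The part of tubule RNA in single genes was not tested.

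**Figure D2:**
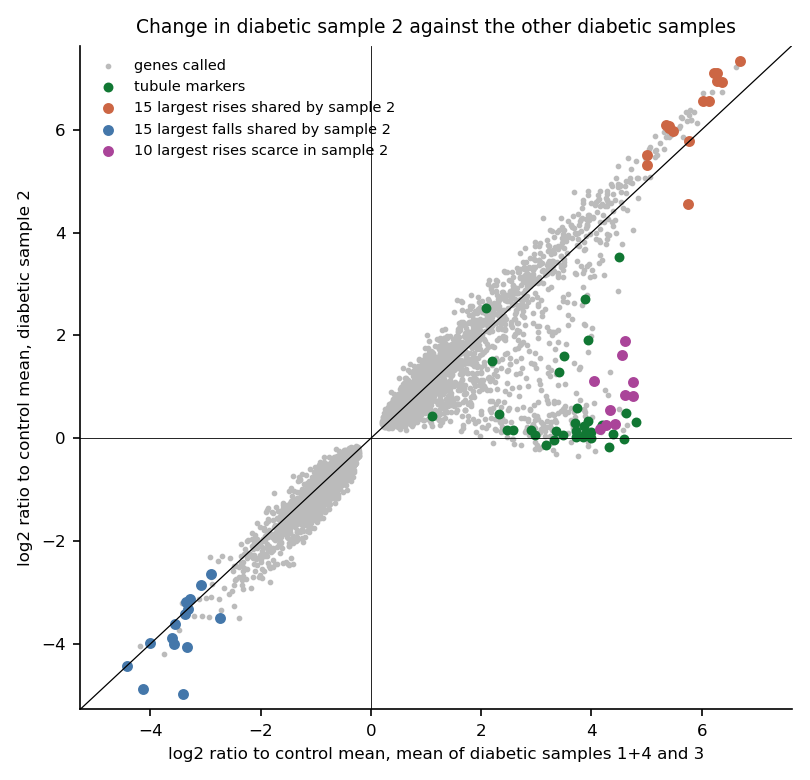
Log2 ratio to the control mean (0.5 CPM added to both sides) in diabetic sample 2 (y axis) against that of the mean of samples 1+4 and 3 (x axis), 1 point per gene called, with the diagonal as a line. Most genes lie along the diagonal, whereas most tubule markers (green) lie near 0 on the y axis, and the 10 largest rises scarce in sample 2 (purple) lie well below the diagonal.

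The largest increases shared by sample 2 were of genes near absence in control glomeruli. The 15 largest among well-expressed genes (mean log2 CPM of at least 3, groups apart, sample 2 at least 2-fold up) had log2 differences of 7.09 to 10.81. All 15 stood above their level in diabetic cortex, by margins that ranged from small (Mpzl2, mean 22.1 against 18.8 CPM) to very large. Plekhs1 had a mean of 50.9 against 0.116 CPM, Wnt7a 126 against 0.0695 CPM and Moxd1 71.0 against 0.101 CPM. The podocyte marker sum in these samples stood at 440 to 734% of diabetic cortex. Why some of these gaps were far larger than that was not tested. They hold genes of cell junctions (Cldn6, a claudin of tight junctions, Dsg2, a desmosomal cadherin, and Mpzl2, an immunoglobulin-like adhesion protein of epithelia), the keratin Krt17, the mesothelial surface protein gene Msln, the ligand gene Wnt7a, the epithelial transcription factor gene Grhl2, the protease gene Prss22, the kinase gene Pak6 and the chemokine gene Ppbp. The rest are Plekhs1, Mab21l4, AI593442, the monooxygenase-like Moxd1 and the metalloprotease-like Adamdec1. Control sample 2 was the highest control for all 15, diabetic sample 2 the highest diabetic sample for 13, and diabetic sample 3 the lowest for 13.

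Promoter letters are shown for 4 of the gained genes because they hold motifs that were searched on both strands: AP-1 (TGANTCA), grainyhead-like (AACCNGTT) and the CArG box. Capitals mark the matches. Stretches lie upstream of the start and come from RefSeq on GRCm38.p6, read 5′ to 3′ along the gene: Mab21l4 (chr1:93161069-93161168, minus strand), Cldn4 (chr5:134947075-134947184, minus), Ppbp (chr5:90768298-90768447, plus) and Plekhs1 (chr19:56461397-56461496, plus).
Mab21l4: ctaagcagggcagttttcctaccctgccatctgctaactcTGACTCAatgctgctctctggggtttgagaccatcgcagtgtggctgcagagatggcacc
Cldn4: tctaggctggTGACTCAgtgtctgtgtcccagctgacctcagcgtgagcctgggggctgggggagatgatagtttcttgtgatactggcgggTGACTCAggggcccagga
Ppbp: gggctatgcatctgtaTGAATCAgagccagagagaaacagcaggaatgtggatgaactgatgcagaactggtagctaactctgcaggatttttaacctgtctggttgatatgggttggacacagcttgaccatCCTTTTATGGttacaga
Plekhs1: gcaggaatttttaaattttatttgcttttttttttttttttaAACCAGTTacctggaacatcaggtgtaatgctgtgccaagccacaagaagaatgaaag

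Of the 15 genes 8 had a promoter in that table (250 bases before to 50 after the start). The AP-1 letters were in 3 of these 8 (Mab21l4, Pak6 and Ppbp), against 6.66% of the 11849 tested genes with a promoter. The grainyhead-like letters were in 1 (Plekhs1, 198 bases before the start) against 2.22%, and a CArG box in 1 (Ppbp, 87 bases before the start) against 1.65%. Of the 15 largest decreases, described below, 12 had a promoter. Among these the grainyhead-like letters were also in 1 (Ccdc3), a CArG box in 1 (Cbr2) and the AP-1 letters in 0. Matches of 2 of the motifs overlapped in 1 of 15171 promoters. Cldn4, which belongs to the genes with the largest rise in CPM, had AP-1 letters 240 and 158 bases before its start. A match describes the letters in the window and shows no bound factor.

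Plekhs1, which encodes a protein with a pleckstrin homology domain (chromosome 19, 56461640 to 56486752), had 4 counts in all controls together and 8877 in the diabetic libraries. Its level was 0, 0.0529 and 0.0254 CPM in control samples 1, 2 and 3+4, against 58.7, 72.3 and 21.8 CPM in diabetic samples 1+4, 2 and 3, the order used for all genes (log2 10.81 ± 0.79, edgeR adjusted p = 0.000519, n = 3 each). Prss22 (chromosome 17, 23993534 to 23998100) was at 0.0537, 0.635 and 0.0636 CPM in control and 98.7, 121 and 55.6 CPM in diabetic glomeruli (8.74 ± 0.74, edgeR adjusted p = 0.000678), and at 0 CPM in diabetic cortex. In both genes sample 3 was the lowest of the diabetic samples. Wnt7a, a secreted Wnt ligand (chromosome 6, 91363981 to 91411363), was at 0.107, 2.22 and 0.140 CPM in control and 131, 161 and 85.2 CPM in diabetic glomeruli (7.42 ± 0.98, edgeR adjusted p = 0.00233). Grhl2, which drives junction genes in epithelia, was at 0.188, 0.238 and 0.0763 CPM and at 25.7, 26.0 and 16.1 CPM (7.20 ± 0.42, edgeR adjusted p = 0.000347). Adamdec1 had another order: 0, 0.291 and 0 CPM in control and 13.3, 13.5 and 49.7 CPM in diabetic glomeruli, with sample 3 the highest (8.34 ± 1.19, edgeR adjusted p = 0.00293).

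The largest decreases shared by sample 2 included a collagen receptor gene, 2 complement genes and 2 genes of taurine supply. The 15 largest were chosen by the same rule as the increases, groups apart included, with sample 2 at least 2-fold down. They had log2 differences of -4.72 to -3.00, and 8 of them stayed above their level in diabetic cortex. Itga11, the alpha chain of a collagen-binding integrin (chromosome 9, 62677826 to 62783982), was at 273, 88.5 and 248 CPM in control and 8.47, 8.93 and 9.51 CPM in diabetic glomeruli (-4.50 ± 0.44, edgeR adjusted p = 0.000972). Pgr, the progesterone receptor gene, was at 30.7, 14.1 and 36.9 CPM and at 0.869, 1.26 and 1.57 CPM (-4.49 ± 0.44, edgeR adjusted p = 0.000942). Bmp4, a bone morphogenetic protein gene, was at 187, 111 and 179 CPM and at 13.5, 14.4 and 16.2 CPM (-3.44 ± 0.22, edgeR adjusted p = 0.000413). The diabetic samples were close to one another in these genes, while control sample 2 was the lowest control, as it was for 12 of the 15.

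The taurine transporter gene Slc6a6 (chromosome 6, 91684053 to 91759066) was at 7803, 3421 and 7308 CPM in control and 563, 617 and 677 CPM in diabetic glomeruli (-3.32 ± 0.33, edgeR adjusted p = 0.00102). Cdo1, whose enzyme oxidises cysteine in the first step towards taurine, was at 160, 39.6 and 111 CPM and at 11.6, 2.83 and 7.00 CPM (-3.84 ± 0.68, edgeR adjusted p = 0.00622). In both genes control sample 2 was the lowest control. The complement genes C3, the central component (-3.58 ± 0.34), and C1s1, a protease of the classical pathway (-3.24 ± 0.22), fell too. Others among the 15 were the acid-sensing channel gene Asic3 (-4.31 ± 0.56), the carbonyl reductase gene Cbr2 (-4.09 ± 0.19), Synpo2, whose protein binds actin in muscle (-4.04 ± 0.50), the corneodesmosin gene Cdsn (-3.47 ± 0.41), the interferon-induced GTPase gene Tgtp1 (-3.11 ± 0.41), Ms4a2, which encodes a chain of the IgE receptor (-3.10 ± 0.26), and the secreted protein gene Ccdc3 (-3.00 ± 0.36). The chemokine gene Ccl7 had 1 high control, at 6.31, 117 and 6.35 CPM, and kept its call without that sample. The call was lost with FPKM values, with separate libraries and a replicate block (edgeR adjusted p = 0.0561), without the filter on low counts (edgeR adjusted p = 0.121), and without diabetic samples 1+4, 2 or 3 (edgeR adjusted p = 0.113, 0.102 and 0.0747).

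**Figure D3:**
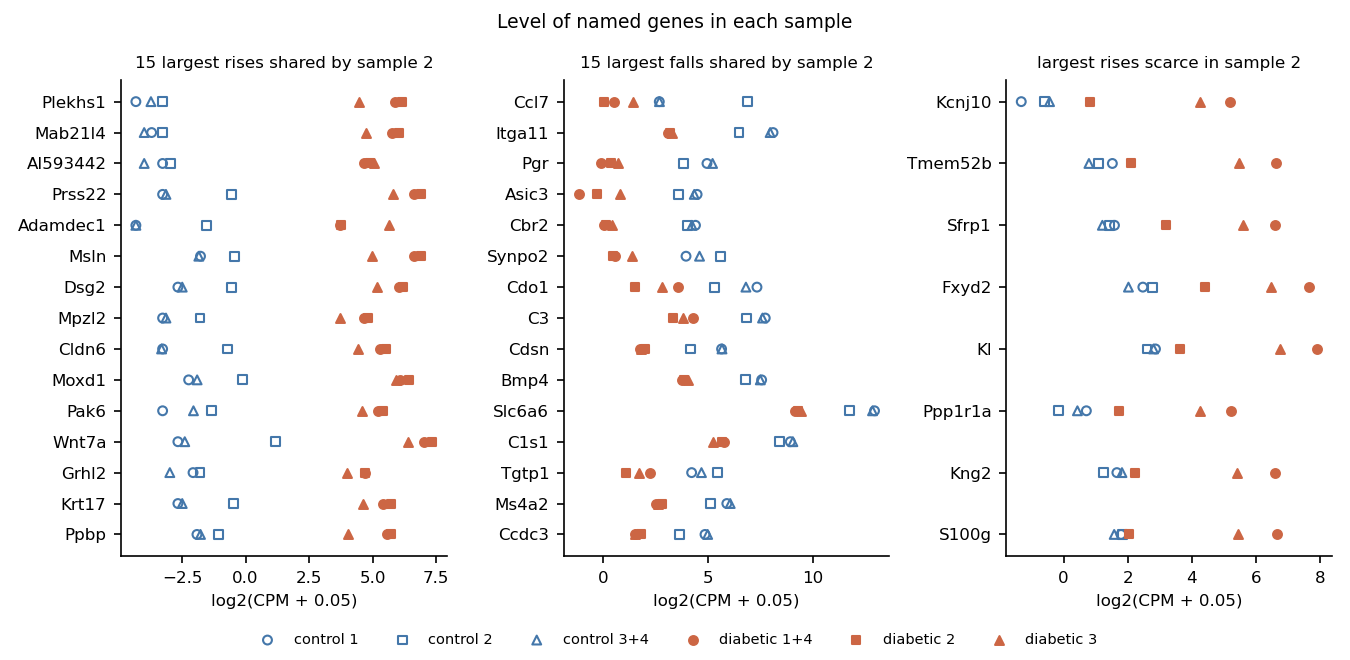
Log2(CPM + 0.05) of the named genes (x axis) in each control sample (open blue) and diabetic sample (filled orange), 1 row per gene. In every panel the groups lie apart because the genes were chosen so. In the right panel diabetic sample 2 (square) lies nearer to the controls than the other diabetic samples do.

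The largest rises that were scarce in sample 2 were mostly of genes known from tubules. They include Kcnj10, a basolateral potassium channel gene, Kl, which encodes klotho, the calbindin gene S100g, Fxyd2, a sodium pump subunit gene, the kininogen gene Kng2, the Wnt inhibitor gene Sfrp1, Ppp1r1a and Tmem52b. Kl was at 7.25, 6.03 and 6.96 CPM in control and 242, 12.5 and 109 CPM in diabetic glomeruli (4.17 ± 0.97, edgeR adjusted p = 0.0165), against 690.6 CPM in diabetic cortex. Kcnj10 was at 0.349, 0.608 and 0.687 CPM and at 36.5, 1.73 and 19.0 CPM (5.09 ± 1.07, edgeR adjusted p = 0.0119). That sample 2 was the lowest diabetic sample follows from how these genes were chosen. By the same choice sample 2 still lay above every control, in Fxyd2 at 21.5 CPM against 4.02 to 6.85 CPM and in Sfrp1 at 9.06 against 2.26 to 2.95 CPM. Samples 1+4 exceeded sample 3 in all 10, and none of the 10 exceeded its diabetic cortex level. In 7 of the 10 largest (not in Fxyd2, Sfrp1 or Ppp1r1a) the call was lost without the filter on low counts and with log2(FPKM + 1). Leaving out control sample 1, 2 or 3+4 ended 7, 6 and 7 of the 10 calls, and leaving out diabetic samples 1+4 ended 4, with edgeR adjusted p between 0.0505 and 0.087 in these fits for the genes named here.

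By absolute change in CPM, which favours abundant and long genes, the increases included those of Clu, Eef1a1, Spp1, Krt8, Gpx3, Agrn, Cldn4, Eef2 and Plau. Spp1, which encodes the secreted phosphoprotein osteopontin, was at 193, 723 and 207 CPM in control and 2227, 2279 and 2218 CPM in diabetic glomeruli (2.58 ± 0.54, edgeR adjusted p = 0.0112). Krt8, a keratin of simple epithelia, was at 2.26, 19.1 and 2.48 CPM and at 1056, 1264 and 600.5 CPM (6.96 ± 1.04, edgeR adjusted p = 0.00346). Plau, which encodes urokinase, was at 152, 139 and 152 CPM and at 933, 1074 and 499.8 CPM (2.50 ± 0.28, edgeR adjusted p = 0.00142). These did not follow the tubule markers, since sample 2 was as high as or higher than the others. The antioxidant enzyme gene Gpx3 did: it stood at 116, 179 and 107 CPM and at 1791, 219.7 and 1029.6 CPM, against 17614 CPM in diabetic cortex, and its call was lost without the filter on low counts and without control sample 1, control samples 3+4 or diabetic samples 1+4 (edgeR adjusted p = 0.0796, 0.0772, 0.0723 and 0.0516).

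The largest falls in CPM, several of them of matrix genes, included those of Sparc, Slc6a6, Vim, Col1a2, Igfbp7, Col4a1, Lox, Col4a2 and Dag1. Vim, an intermediate filament of mesenchymal cells and podocytes, was at 7915, 6014 and 6802 CPM in control and 1662, 1908 and 3172 CPM in diabetic glomeruli (-1.62 ± 0.27, edgeR adjusted p = 0.00505). Dag1, which encodes dystroglycan, a laminin receptor of the podocyte foot, was at 3003, 1425 and 2559 CPM and at 558, 564 and 520.5 CPM (-2.09 ± 0.27, edgeR adjusted p = 0.00218). Igfbp7, a secreted protein that binds insulin-like growth factors, was at 6369.8, 4313 and 5355 CPM and at 1973, 1951 and 1881 CPM (-1.47 ± 0.17, edgeR adjusted p = 0.00136). In Vim, and likewise in Sparc, Col1a2 and Lox, sample 3 was the diabetic sample nearest to the controls. The smooth muscle sum was highest there as well (6605 CPM), and its part in these genes was not tested.

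Genes of the translation machinery rose together by small amounts. Of 64 cytosolic ribosomal protein genes 51 rose (79.7%, against 19.4% of all genes), with a median log2 of 0.38, and the other 13 did not pass the test. Rpsa, a protein of the small subunit and laminin receptor, was at 572, 595 and 512 CPM in control and 883, 996 and 960 CPM in diabetic glomeruli (0.76 ± 0.10, edgeR adjusted p = 0.00253). Rpl10a, of the large subunit, was at 288, 289 and 260 CPM and at 429, 478 and 449 CPM (0.70 ± 0.09, edgeR adjusted p = 0.00217). Groups were apart in both, and sample 2 was the highest. Rps2 rose by 0.70 on the log2 scale. With library totals 62 rose (median 0.57, where all genes moved to 0.20), and sample 2 alone called 21 higher with a median of 0.49. The elongation factor genes Eef1a1 (0.45 ± 0.12, edgeR adjusted p = 0.0284) and Eef2 (0.40 ± 0.11, edgeR adjusted p = 0.0279) also rose, but both calls were lost when control sample 1, 2 or 3+4, or diabetic sample 2, was left out, at edgeR adjusted p of 0.0545 to 0.109. Many of these genes have processed pseudogenes with near-identical sequence, so counts may be split between copies.

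Enzymes that make serine and glycine and feed the folate cycle were more often higher than lower. Of 26 tested, 14 rose (53.85%, against 19.4% of all genes), 1 fell and 11 did not pass (median 0.46), and sample 2 alone called 10 higher (median 0.60). Psat1, the aminotransferase of serine synthesis (chromosome 19, 15904678 to 15947337), was at 53.4, 54.4 and 49.5 CPM in control and 130, 156 and 121 CPM in diabetic glomeruli (1.37 ± 0.11, edgeR adjusted p = 0.000594). Psph, the phosphatase of the last step, was at 17.9, 20.4 and 18.9 CPM and at 50.2, 57.0 and 37.8 CPM (1.34 ± 0.16, edgeR adjusted p = 0.00161). Shmt2, which moves a carbon from serine to folate in mitochondria, rose by 1.05 ± 0.09 on the log2 scale (edgeR adjusted p = 0.000669). Cth, which makes cysteine from cystathionine, was at 6.85, 7.91 and 6.96 CPM and at 49.3, 49.9 and 26.3 CPM (2.53 ± 0.26, edgeR adjusted p = 0.00109). All 4 rose in sample 2 as much as in the others or more. The letters TGATGNAA of the C/EBP-ATF response element (CARE) were in 2.86% of tested genes' promoters and in none of the 22 promoters of these genes, which says only that these letters are not in the windows.

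Lysosome and autophagy genes, which degrade proteins and worn organelles, were more often lower than higher. Of 36 lysosome genes 14 fell and 3 rose (38.9 and 8.33%, against 18.2 and 19.4% of all genes). Their median was -0.28, and -0.40 in sample 2 alone, and library totals called 10 lower and 4 higher. Among them the proteases Ctsk (-1.97 ± 0.15) and Ctsf (-1.26 ± 0.15) and Naglu, an enzyme that degrades heparan sulfate (-0.79 ± 0.09), fell, whereas the membrane protein gene Cln3 rose (1.00 ± 0.12). Ctsk was at 11.6, 12.0 and 13.1 CPM in control and 3.18, 2.79 and 3.36 CPM in diabetic glomeruli (edgeR adjusted p = 0.000542). Of 37 autophagy genes 14 fell and 2 rose (37.8 and 5.4%). Their median was -0.24, and -0.05 with library totals, which called 7 lower and 4 higher. Uvrag, a partner of the lipid kinase that starts autophagosomes, was at 95.7, 79.0 and 92.5 CPM and at 40.004, 39.4 and 48.6 CPM (-1.06 ± 0.12, edgeR adjusted p = 0.00135). The conjugation genes Map1lc3a (-0.62 ± 0.09), Atg12 (-0.56 ± 0.09) and Atg3 (-0.46 ± 0.08) fell by less. Of 34 proteasome subunit genes 2 rose (Psmd3, 0.31 ± 0.07, and Psmd14, 0.35 ± 0.10) and 32 did not pass, while library totals called 13 higher. Psmd3 lost its call without control samples 3+4 (edgeR adjusted p = 0.0595) and Psmd14 without control samples 2 or 3+4 or diabetic sample 2 (edgeR adjusted p = 0.0882, 0.0986 and 0.0675).

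Receptors and ligands of the EGF family, which drive growth and repair of epithelia, were more often higher than lower. Of 14 genes 9 rose (64.3%, against 19.4% of all genes) and 5 did not pass. Their median was 0.87, and 0.92 in sample 2 alone. Erbb3, a receptor without its own kinase activity (chromosome 10, 128567523 to 128589652), was at 4.73, 5.69 and 4.18 CPM in control and 44.0, 43.6 and 27.5 CPM in diabetic glomeruli (2.98 ± 0.23, edgeR adjusted p = 0.000544). Its ligand gene Nrg1 was at 6.37, 14.6 and 10.2 CPM and at 60.8, 71.2 and 48.5 CPM (2.53 ± 0.31, edgeR adjusted p = 0.00181). The receptor gene Erbb4 (2.52 ± 0.39) and the feedback inhibitor gene Errfi1 (1.14 ± 0.16) rose as well. Of 16 MAPK phosphatase genes, which switch off the kinases below such receptors, 6 rose and 2 fell (median 0.45, with 7 and 0 by library totals). Dusp9 (3.00 ± 0.40), Dusp4 (1.16 ± 0.19), Dusp18 (0.75 ± 0.13) and Dusp7 (0.64 ± 0.08) were among the higher ones.

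Other receptor tyrosine kinases and their ligands were more often lower. Of 24 genes 12 fell and 5 rose (median -0.53, and -0.46 in sample 2 alone). Ntrk3, the neurotrophin-3 receptor gene, was at 91.8, 91.9 and 103 CPM in control and 32.0, 34.1 and 32.0 CPM in diabetic glomeruli (-1.55 ± 0.08, edgeR adjusted p = 0.000328). Tyro3, a receptor for the vitamin K-dependent ligand GAS6, was at 184, 129 and 169 CPM and at 48.4, 50.5 and 59.9 CPM (-1.60 ± 0.16, edgeR adjusted p = 0.000938). The neurotrophin gene Bdnf fell (-1.18 ± 0.15), and the receptor gene Ltk, near absence in controls, rose to 7.86, 10.2 and 6.31 CPM (5.57 ± 0.67). In the FGF family 4 of 21 rose and 4 fell, near the share of all genes, with a median of -0.05 that became 0.14 with library totals. Fgf9 rose (4.71 ± 0.49) to 5.61, 2.60 and 3.41 CPM, below the 8.41 CPM of diabetic cortex. Fgf21 rose (2.90 ± 0.43) but was low throughout, at 0.0806 to 0.229 CPM in control and 1.05 to 1.29 CPM in diabetic glomeruli. Fgfr1 (-0.96 ± 0.12) and Fgf16 (-3.84 ± 0.66) fell. Fgfr1, the receptor gene among these, was at 410, 382 and 366 CPM in control and 176, 189 and 230 CPM in diabetic glomeruli.

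Ephrins and their receptors, which signal between touching cells, changed in 13 of 19 cases. Of the 19, 9 were higher and 4 lower (47.4 and 21.1%, against 19.4 and 18.2% of all genes). Their median was 0.38, and library totals called 9 higher and 1 lower. Ephb2 (chromosome 4, 136647539 to 136835988) was at 0.860, 2.46 and 0.928 CPM in control and 48.0, 56.5 and 39.2 CPM in diabetic glomeruli (5.12 ± 0.43, edgeR adjusted p = 0.000678). Epha4 (1.86 ± 0.28) and the ligand gene Efna1 (0.90 ± 0.14) rose, and the ligand gene Efnb2 fell from 276, 265 and 274 CPM to 172, 181 and 198 CPM (-0.57 ± 0.09, edgeR adjusted p = 0.00346). Of 42 guidance genes (semaphorins, plexins, netrins, Slits and Robos) 11 rose and 10 fell. These are 26.2 and 23.8%, near the 19.4 and 18.2% of all genes. Their median was -0.20, and -0.01 with library totals, which called 12 higher and 6 lower. Sema6a was at 6.61, 10.8 and 6.55 CPM and at 78.2, 91.4 and 36.1 CPM (3.11 ± 0.39, edgeR adjusted p = 0.00203), and Sema4d (3.97 ± 0.51) and Sema3f (1.19 ± 0.12) also rose. The Slit receptor gene Robo1 fell from 59.4, 77.4 and 68.6 CPM to 26.6, 28.6 and 31.0 CPM (-1.25 ± 0.12, edgeR adjusted p = 0.000850).

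Genes of cyclic nucleotide signalling, by which smooth muscle and mesangial cells relax, were more often lower than higher. In the nitric oxide, natriuretic peptide and cyclic GMP list 7 of 20 fell and 3 rose (35 and 15%, against 18.2 and 19.4% of all genes). Their median was -0.35, and -0.41 in sample 2 alone. Gucy1b1, a subunit of the nitric oxide receptor, was at 43.9, 57.8 and 48.4 CPM in control and 23.3, 25.2 and 24.3 CPM in diabetic glomeruli (-1.04 ± 0.12, edgeR adjusted p = 0.00131). Prkg1, the cyclic GMP-dependent kinase gene, was at 32.9, 28.7 and 34.6 CPM and at 15.3, 17.0 and 14.5 CPM (-1.04 ± 0.11, edgeR adjusted p = 0.00118). Npr2, the receptor for C-type natriuretic peptide, fell by 1.23 on the log2 scale (SE 0.16), and Nppa, the atrial peptide gene, was at 2.52 to 3.41 CPM in control and 0.367 to 0.858 CPM in diabetic glomeruli (-2.50 ± 0.40). Of 37 cyclic AMP genes 14 fell and 4 rose (37.8 and 10.8%). Their median was -0.20, and -0.02 with library totals, which called 11 lower and 7 higher. The phosphodiesterase gene Pde3a was at 173, 119 and 218 CPM and at 38.8, 35.4 and 34.5 CPM (-2.23 ± 0.22, edgeR adjusted p = 0.000958). Pde4d (-1.38 ± 0.14) and the cyclase gene Adcy5 (-1.98 ± 0.21) fell, whereas Pde7a rose from 14.9, 22.8 and 17.6 CPM to 77.2, 85.3 and 95.1 CPM (2.22 ± 0.17, edgeR adjusted p = 0.000558). Smooth muscle markers fell in the same samples, and their part in these lists was not tested.

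Among 20 genes of endothelin, adrenomedullin and other vasoactive peptides and their receptors 5 rose and 4 fell, shares near the 19.4 and 18.2% of all genes (median 0.14). Bdkrb2, the bradykinin B2 receptor gene, was at 0.134, 0.423 and 0.0254 CPM in control and 16.5, 18.2 and 9.48 CPM in diabetic glomeruli (6.42 ± 0.79, edgeR adjusted p = 0.00181). Npy1r, a neuropeptide Y receptor gene, was at 12.0, 11.0 and 14.2 CPM and at 2.75, 2.63 and 2.17 CPM (-2.30 ± 0.18, edgeR adjusted p = 0.000558). Oxtr, the oxytocin receptor gene (-1.54 ± 0.26), and Adm, which encodes adrenomedullin (-0.94 ± 0.19), fell. Of 25 purinergic genes 5 rose and 6 fell (20 and 24%), while library totals, FPKM values with 1 added and separate libraries each called 10 higher and 6 lower. Their median was 0.27, and 0.22 in sample 2 alone. The ATP-gated channel genes P2rx1 (-2.57 ± 0.40) and P2rx5 (-1.24 ± 0.18) and the UDP-glucose receptor gene P2ry14 (-2.13 ± 0.33) fell, and Entpd3, an enzyme that cleaves extracellular ATP, had 0 counts in the controls and was at 6.30, 7.28 and 4.55 CPM in diabetic samples. Of 27 eicosanoid genes 9 rose and 1 fell, with the leukotriene synthase gene Ltc4s (3.42 ± 0.34), the exporter gene Abcc4 (2.81 ± 0.38) and Ptges2 (0.57 ± 0.11) higher and the prostaglandin E2 receptor gene Ptger4 lower (-0.74 ± 0.10). Their median was 0.33, but -0.06 in sample 2 alone. Of 15 regulators of G protein signalling 6 rose and 2 fell (40 and 13.3%). Their median was 0.50, but 0.07 in sample 2 alone. Rgs5, a pericyte gene, was at 159, 108 and 245 CPM and at 45.0, 34.6 and 21.0 CPM (-2.35 ± 0.38, edgeR adjusted p = 0.00465). Rgs4 fell (-1.84 ± 0.23), and Rgs6 rose (3.78 ± 0.53), as did Rgs20, which stayed under 1 CPM in every sample.

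Hedgehog and Notch genes, which pattern stroma and nephron during development, were examined next. Of 12 Hedgehog genes 6 fell and the other 6 did not pass (median -0.41). Library totals called 3 lower and log2(FPKM + 1) 4, and the median in sample 2 alone was -0.50. Cdon, a Hedgehog co-receptor, was at 160, 112 and 185 CPM in control and 45.3, 47.7 and 63.3 CPM in diabetic glomeruli (-1.55 ± 0.22, edgeR adjusted p = 0.00277). The target gene Gli1 was low throughout, at 0.450 to 0.752 CPM in control and 0.0734 to 0.191 CPM in diabetic glomeruli (-2.28 ± 0.46, edgeR adjusted p = 0.00954). Disp1 (-0.87 ± 0.21), which releases the ligand, and Hhat (-0.79 ± 0.21), which attaches a lipid to it, lost their calls without diabetic samples 1+4 or 2 (edgeR adjusted p = 0.0574 and 0.0648 for Disp1, 0.0948 and 0.0712 for Hhat). Hhat also lost its call with library totals (0.0527) and without control sample 1 (0.0747) or 3+4 (0.0752). Of 27 Notch genes 7 fell and 4 rose (25.9 and 14.8%, against 18.2 and 19.4% of all genes). Their median of -0.12 became 0.07 with library totals. Notch3, the receptor of mural cells, was at 93.6, 77.1 and 90.6 CPM and at 42.9, 38.6 and 43.3 CPM (-1.07 ± 0.10, edgeR adjusted p = 0.000858), and its target Hey2 (-1.47 ± 0.16) and the coactivator gene Maml3 (-1.24 ± 0.15) fell, whereas Nrarp, a feedback inhibitor, rose from 2.93, 3.57 and 3.08 CPM to 8.45, 7.37 and 8.32 CPM (1.33 ± 0.17, edgeR adjusted p = 0.00203).

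Hox genes, which give cells their position along the body axis, changed by cluster. All 8 tested genes of the Hoxb cluster (chromosome 11, 96271457 to 96354012) rose, with a median log2 of 1.47 and a range of 1.09 to 2.16, and all 8 were also called higher in sample 2 alone. In the Hoxd cluster (chromosome 2, 74679557 to 74748442) 4 of 6 rose (median 0.64, and 0.48 in sample 2 alone). Their rise in sample 2 was 29.7% (Hoxd8), 49.2% (Hoxd3), 71.7% (Hoxd9) and 117% (Hoxd10) of the mean rise in samples 1+4 and 3. In the Hoxc cluster (chromosome 15, 102921103 to 103036852) 5 of 8 fell (median -1.10) and 3 did not pass, and in the Hoxa cluster (chromosome 6, 52155590 to 52245810) 3 of 10 fell, namely Hoxa9, Hoxa10 and Hoxa11, towards the end of the cluster expressed in posterior tissue. With library totals the medians were 1.66 (Hoxb), 0.83 (Hoxd), -0.91 (Hoxc) and 0.10 (Hoxa, from -0.09), so only that of Hoxa changed sign. Hoxb8 was at 10.7, 16.1 and 9.27 CPM in control and 53.4, 51.9 and 55.5 CPM in diabetic glomeruli, against 27.4 CPM in diabetic cortex (2.16 ± 0.21, edgeR adjusted p = 0.000919). Hoxb3 was at 26.8, 24.9 and 22.1 CPM and at 50.5, 55.1 and 51.2 CPM (1.09 ± 0.10, edgeR adjusted p = 0.000720). The diabetic samples were nearly level in both, sample 2 included. Genes of a cluster lie close together and overlap noncoding and antisense transcripts, from which reads cannot be told apart where strand was not used.

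**Figure D4:**
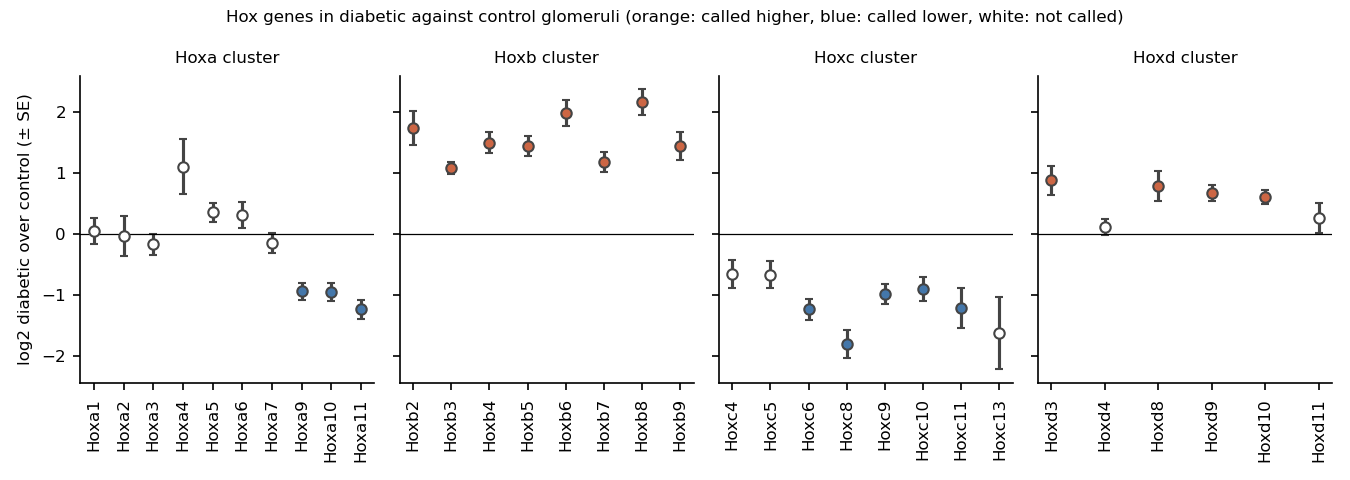
Log2 difference ± SE (y axis) of each Hox gene tested, by cluster and in order of paralogue number (x axis), orange where called higher, blue where called lower and white where not called. All 8 Hoxb genes lie above 0, between 1.09 and 2.16, and all 8 Hoxc genes lie below 0.

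Among 58 renal developmental transcription factors, a list that includes most of these Hox genes, 26 rose and 14 fell (median 0.30). Lhx1, needed for nephron formation, was at 0.430, 0.952 and 0.407 CPM in control and 22.5, 16.7 and 19.0 CPM in diabetic glomeruli (5.06 ± 0.37, edgeR adjusted p = 0.000519). Six5 fell from 34.1, 30.6 and 30.8 CPM to 15.3, 14.5 and 15.3 CPM (-1.08 ± 0.09, edgeR adjusted p = 0.000594). Both genes had groups well apart, and Lhx1 in the diabetic samples was near its level in diabetic cortex (21.7 CPM). Of 20 Kruppel-like and SP factors 2 rose and 4 fell (10 and 20%, against 19.4 and 18.2% of all genes), whereas library totals called 4 higher and 1 lower. Klf8 (3.08 ± 0.26) and Klf5 (1.69 ± 0.23) rose, and Sp6 (-1.53 ± 0.23) was among those that fell. Klf13 (-0.58 ± 0.13) lost its call with library totals (edgeR adjusted p = 0.0572) and with FPKM values. Of 34 nuclear receptors 8 rose and 7 fell (23.5 and 20.6%, near the 19.4 and 18.2% of all genes). Their median was 0.17, and library totals called 12 higher and 1 lower. The higher ones include Nr6a1 (1.71 ± 0.24) and Hnf4g (4.66 ± 0.69). Hnf4g was low throughout, at 0.0254 to 0.106 CPM in control and 0.739 to 2.00 CPM in diabetic glomeruli.

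Cadherins and connexins, which join neighbouring cells, changed in both directions. Of 26 cadherins 11 rose and 5 fell (median 0.50), and sample 2 alone called 7 higher and 6 lower. Cdh1, the E-cadherin gene of epithelial junctions (chromosome 8, 106603351 to 106670246), was at 1.93, 6.59 and 2.06 CPM in control and 408, 426 and 254 CPM in diabetic glomeruli, against 164 CPM in diabetic cortex (6.71 ± 0.59, edgeR adjusted p = 0.000756). Cdh3, the P-cadherin gene, was at 3.57, 5.95 and 4.12 CPM and at 103, 115 and 74.8 CPM (4.43 ± 0.26, edgeR adjusted p = 0.000347), against 8.64 CPM in diabetic cortex. Celsr1, a planar polarity cadherin gene, rose (3.53 ± 0.21) and Pcdh18 fell (-1.41 ± 0.14). Of 11 connexins and pannexins 4 rose and 4 fell (median -0.38, with 5 and 3 by library totals). Gjc1 was among those that fell (-0.61 ± 0.11).

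Of 31 potassium channel genes 10 rose and 3 fell (median 0.56; sample 2 alone 8 and 2). Kcnk1, a background channel gene, was at 1.504, 2.35 and 0.776 CPM in control and 89.4, 97.3 and 54.2 CPM in diabetic glomeruli (5.76 ± 0.45, edgeR adjusted p = 0.000558), above the 47.6 CPM of diabetic cortex. Kcnk5 (3.67 ± 0.36) and Kcnq1 (5.11 ± 0.50) rose to levels below cortex. Of 41 genes of calcium channels, TRP channels and pumps 12 rose and 9 fell (29.3 and 22.0%, against 19.4 and 18.2% of all genes). Their median was -0.01, and 0.18 with library totals. Trpv4, a channel gated by stretch and osmotic swelling, was at 3.90, 6.08 and 3.46 CPM and at 90.4, 88.8 and 58.6 CPM (4.16 ± 0.29, edgeR adjusted p = 0.000504), and Itpr3, an inositol trisphosphate receptor of calcium stores, was at 80.4, 95.4 and 78.3 CPM and at 236, 262 and 251 CPM (1.56 ± 0.11, edgeR adjusted p = 0.000422). The store sensor gene Stim1 (-1.40 ± 0.10) and the channel gene Trpc4 (-1.91 ± 0.26) fell.

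Genes of the primary cilium, the sensory antenna of renal cells, included 2 polycystic kidney disease genes that changed in opposite directions. Pkd1, which encodes polycystin 1 of the primary cilium, was at 348, 312 and 332 CPM in control and 116, 115 and 139 CPM in diabetic glomeruli (-1.42 ± 0.11, edgeR adjusted p = 0.000519). Pkhd1, which encodes fibrocystin and is expressed in tubules and ducts, was at 2.07, 6.85 and 2.66 CPM and at 121, 118 and 92.2 CPM (4.86 ± 0.47, edgeR adjusted p = 0.000922), against 140 CPM in diabetic cortex. Sample 2 was close to sample 1+4 in both. Of the 36 cilium genes 11 fell and 1 rose (median -0.21, and -0.02 with library totals, which called 5 lower and 4 higher), among them Inpp5e (-0.60 ± 0.09) and Bbs1 (-0.74 ± 0.11). Of 38 tubulin, septin and microtubule genes 13 fell and 8 rose (median -0.04, and 0.15 with library totals, which called 10 lower and 11 higher). Those that rose include Map7 (2.54 ± 0.19), Tuba8 (3.70 ± 0.38), Tuba1c (0.96 ± 0.11) and Dcx, which had 3 counts in all controls and 226 in the diabetic libraries.

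Core proteins of cell surface and matrix proteoglycans, most of which carry heparan sulfate, were called in both directions. Of 14 syndecan, glypican and other core protein genes 6 fell and 1 rose (median -0.36), where library totals and log2(FPKM + 1) each called 5 lower and 4 higher and sample 2 alone 4 lower and 1 higher. Agrn, which encodes agrin, a heparan sulfate proteoglycan of the glomerular basement membrane (chromosome 4, 156165290 to 156197488), was the 1 that rose: 286, 273 and 254 CPM in control and 1114, 1257 and 890.1 CPM in diabetic glomeruli (2.01 ± 0.15, edgeR adjusted p = 0.000519). Gpc4, a glypican, was at 395, 291 and 332 CPM and at 97.3, 98.3 and 138 CPM (-1.61 ± 0.18, edgeR adjusted p = 0.00146), and Sdc2 (-1.45 ± 0.24) and Cspg4, a chondroitin sulfate proteoglycan gene of pericytes (-1.05 ± 0.16), fell. Of 29 enzymes that build or trim heparan sulfate and hyaluronan 9 fell and 6 rose (median -0.17), whereas library totals called 6 lower and 9 higher (median 0.01). Sulf1, which removes sulfate groups outside the cell, was at 618, 549 and 703 CPM and at 202, 230 and 276 CPM (-1.40 ± 0.15, edgeR adjusted p = 0.00122). The hyaluronan synthase gene Has2 was at 0.376, 2.12 and 1.48 CPM and at 15.6, 18.5 and 40.3 CPM, with sample 3 the highest (4.21 ± 0.65, edgeR adjusted p = 0.00384). Hs3st1 rose (3.196 ± 0.37) and Hs3st3b1 fell (-0.84 ± 0.09).

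Cell death genes were called in both directions, with 15 of 40 higher and 7 lower (19 and 4 with library totals). Their median was 0.16, and 0.21 in sample 2 alone. Of the regulators of mitochondrial cell death, the protective Bcl2l1 was at 108, 118 and 92.8 CPM in control and 208, 229 and 175 CPM in diabetic glomeruli (0.94 ± 0.14, edgeR adjusted p = 0.00287), and the likewise protective Bcl2l2 fell (-0.63 ± 0.07). The death-promoting Bcl2l11 was at 24.2, 19.4 and 19.5 CPM and at 38.0, 43.3 and 52.4 CPM (1.08 ± 0.15, edgeR adjusted p = 0.00267), and Bad, of the same kind, fell (-0.67 ± 0.10). Of 31 hypoxia genes 9 fell and 5 rose (29.0 and 16.1%, against 18.2 and 19.4% of all genes). Their median was -0.21, whereas library totals called 5 lower and 7 higher (median -0.03). Ddit4, which restrains the growth kinase mTORC1, was at 42.3, 55.3 and 36.4 CPM and at 180, 204 and 171 CPM (2.05 ± 0.17, edgeR adjusted p = 0.000644). Car12 rose (2.66 ± 0.38) to 40.2, 16.2 and 20.3 CPM, below the 218 CPM of diabetic cortex, with sample 2 at 46.4% of the others' rise. Ndufa4l2 (-1.56 ± 0.19) and Arnt (-0.54 ± 0.10) fell.

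Of 30 genes of lipid droplets and lipid transport 10 rose and 7 fell (median 0.19, with 12 and 5 by library totals). Plin2, the coat protein of lipid droplets, was at 181, 230 and 160 CPM in control and 508, 593 and 514 CPM in diabetic glomeruli, against 146 CPM in diabetic cortex (1.502 ± 0.15, edgeR adjusted p = 0.00104). Fabp5, a fatty acid carrier, was at 88.5, 90.6 and 79.3 CPM and at 17.8, 21.2 and 17.7 CPM (-2.19 ± 0.11, edgeR adjusted p = 0.000320). The receptor gene Vldlr (1.09 ± 0.13) and G0s2, an inhibitor of triglyceride breakdown (4.32 ± 0.42), rose, G0s2 to levels below cortex. Of 34 sphingolipid genes 8 rose and 7 fell (23.5 and 20.6%, near the 19.4 and 18.2% of all genes). Their median was 0.02, and library totals called 14 higher and 5 lower. The galactosyltransferase gene Ugt8a (4.90 ± 0.36) was higher. S1pr2, a sphingosine 1-phosphate receptor gene (-1.36 ± 0.11), Sgms1 (-0.74 ± 0.08) and Cers4 (-1.05 ± 0.11) were lower. Of 28 genes of NAD metabolism 9 rose and 1 fell (median 0.19). Of these Nmnat3 (1.16 ± 0.15) and Nmnat2 (2.59 ± 0.43) rose in sample 2 too, while Kmo and Kynu, enzymes that degrade tryptophan, reached 19.7 and 17.1% of the others' rise there. Nmnat2 was low throughout, at 0.107 to 0.291 CPM in control and 0.858 to 1.42 CPM in diabetic glomeruli. Kynu lost its call without control samples 3+4 (edgeR adjusted p = 0.0546) and with log2(FPKM + 1) (limma adjusted p = 0.0608).

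Among regulators of RNA, chromatin and protein turnover the epithelial splicing factors rose. Esrp1 was at 0.161, 1.96 and 0.165 CPM in control and 59.9, 67.0 and 34.8 CPM in diabetic glomeruli, against 19.0 CPM in diabetic cortex (6.28 ± 0.91, edgeR adjusted p = 0.00306), and Esrp2 rose by 4.47 ± 0.56. Rbfox2, linked to mesenchymal splice forms, was at 253, 260 and 258 CPM and at 122, 137 and 172 CPM (-0.84 ± 0.13, edgeR adjusted p = 0.00416). Over the 42 splicing factors 10 rose and 3 fell (23.8 and 7.14%, against 19.4 and 18.2% of all genes), with a median of 0.01. Library totals called 17 higher and 1 lower. Of 30 acetylation genes 4 rose and 4 fell (13.3% each, below the 19.4 and 18.2% of all genes). Their median was -0.03, and 0.16 with library totals, which called 8 higher and 1 lower. Hdac6, the deacetylase of tubulin, was at 21.8, 23.4 and 21.4 CPM and at 61.9, 59.1 and 57.8 CPM (1.42 ± 0.08, edgeR adjusted p = 0.000328). Hdac11 (1.77 ± 0.13) and Kat2a (0.47 ± 0.08) rose, and Hdac4 (-0.48 ± 0.09) fell but lost its call with FPKM values. Of 32 ubiquitin ligases and deubiquitinases 8 rose and 6 fell (25 and 18.75%, near the 19.4 and 18.2% of all genes). Their median was 0.14, and library totals called 11 higher and 4 lower. Nedd4l, which removes sodium channels from the membrane (1.00 ± 0.11), Rnf43 (4.23 ± 0.46) and Rnf128 (3.45 ± 0.39) were higher and Usp13 lower (-1.29 ± 0.15).

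Among 21 annexins and S100 proteins 4 rose and 4 fell (19.05% each, near the 19.4 and 18.2% of all genes). Their median was 0.24, and library totals called 8 higher and 4 lower. Those that fell include S100a4, a fibroblast gene (-1.46 ± 0.23), S100a13 (-0.92 ± 0.12) and Anxa2 (-0.57 ± 0.11). Of 22 metallothionein and zinc transporter genes 6 fell and 3 rose (27.3 and 13.6%, against 18.2 and 19.4% of all genes). Library totals called 1 lower and 5 higher, and the median of -0.06 became 0.13. Slc39a13 was lower (-0.52 ± 0.09) and Slc39a8 higher (1.18 ± 0.20). None of the 13 mitochondrially encoded messenger RNAs was called by edgeR on the 6 samples, where 2 passed an unadjusted p under 0.05. Among the alternatives, DESeq2 called 2 higher, edgeR 2 with library totals, 4 with separate libraries and 1 without diabetic sample 3, and limma on log2(FPKM + 1) 1. COX1, a subunit of cytochrome oxidase, was at 11969, 10920.2 and 11626 CPM in control and 20858, 10772 and 15849.8 CPM in diabetic glomeruli. Sample 2 was at the level of the controls, and the order of the other samples was that of the tubule markers.

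**Figure D5:**
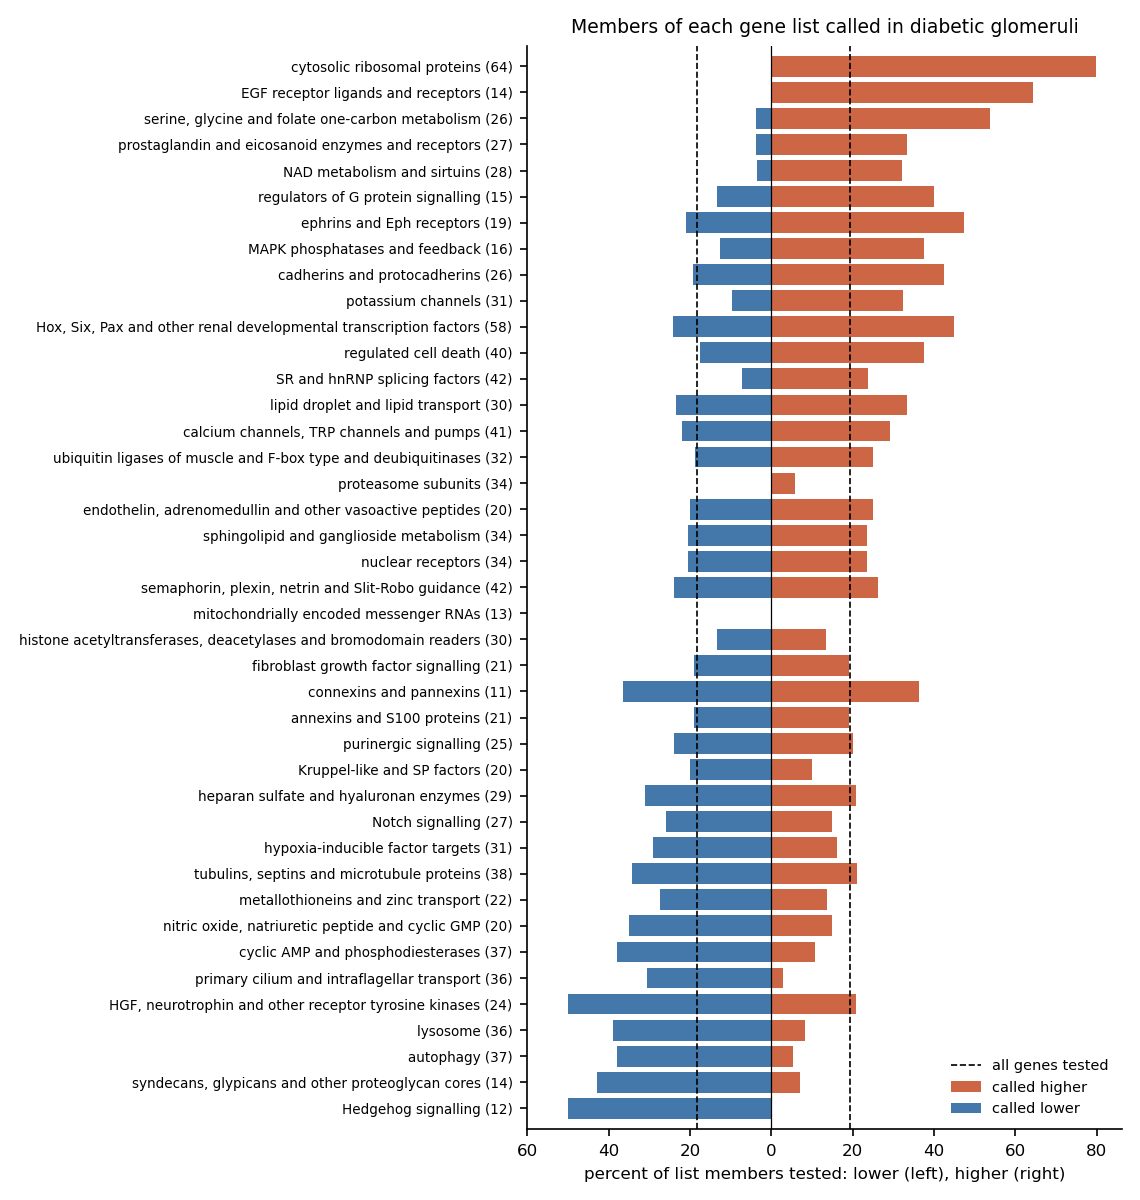
Percent of the tested members of each gene list shown (number tested in brackets) called higher (orange, right) or lower (blue, left) in diabetic glomeruli, with dashed lines at the 19.4% and 18.2% of all genes tested. Ribosomal protein genes reach 79.7% higher, and 6 of 12 Hedgehog genes are called lower (3 with library totals).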

How the data were processed

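RNA was measured in glomeruli (8 libraries) and renal cortex (8 libraries) by sequencing of polyadenylated RNA, with 1.3 µg of total RNA as input per the labels' protocols. The authors deposited raw read counts per gene symbol and FPKM values for glomeruli, and estimated counts per Ensembl identifier, made whole, for cortex. The builds GRCm38 and mm10 are named per the submitters' processing notes; the sources used here do not give the aligner, counter, annotation or strand setting. Of 24722 glomerular genes 19765 matched GENCODE M21 symbols directly and 323 through RefSeq synonyms; 4601 did not match (4.11% of counts).

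The 2 near-identical pairs (control libraries 3 and 4; diabetic libraries 1 and 4) each entered as a sum. The 6 samples were fitted with edgeR 4.0.16 (R 4.3.3; filterByExpr, TMM scaling, robust quasi-likelihood test, no covariates), with Benjamini-Hochberg adjusted p-values under 0.05 called. SE is the log2 difference divided by the square root of F. The fit was tested on simulated counts. Alternatives used separate libraries, a replicate block, 1 library of each pair, library totals, DESeq2 1.42.0, no filter, limma 3.58.1 on log2(FPKM + 1) and log2(FPKM + 0.1), each sample left out, and diabetic sample 2 alone.

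Genes were named by rule: the 15 largest increases and 15 largest decreases shared by sample 2, the 10 largest increases with under 25% of the rise in sample 2, the 10 largest rises and falls in CPM, and up to 4 members per list with the smallest adjusted p. Predicted genes, marker genes and the genes of the study's own hypothesis were left out of all but the last. All but the last also required called genes with groups apart. The comparison's questions, the 42 process lists and the 11 marker lists were chosen with earlier results of these data known. Some genes and 1 gene list that these rules take are not reported here. Cortex FPKM values were not used. Libraries held 36339294 to 41876031 counts. The SE rests on the spread between the 6 samples as fitted, part or all of which may be technical.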

Additional observations from a re-analysis of the deposited data

How the results depend on the processing

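The number of genes called (5717) was 5525 to 7786 under the alternatives that kept all samples, and 3911 to 5237 with 1 sample left out. Genes called with groups apart numbered 3880 to 5155 with 1 sample left out. Diabetic sample 2 alone called 2293 genes, 2274 of them with groups apart, from fewer samples. The share of called genes that were higher (51.6%) rose to 72.55% when scaled by library totals and to 70.8 and 71.47% in the limma fits (FPKM pseudocounts 1 and 0.1), and stood at 50.13 to 59.27% with 1 sample left out; the cause was not tested. With 8 separate libraries and a replicate block 6992 genes were called, against 7786 without it. The correlations of same-numbered libraries' deviations were 0.11, -0.056, 0.053 and -0.046, and not every library correlated best with its own number. The deviations were centred within each group, and each group holds a near-identical pair. These correlations therefore cannot decide whether the numbers pair the libraries. No named gene changed direction under any alternative run. Of 84 list counts (higher and lower in 42 lists), 28 moved by more than 1.5 times with library totals, 25 and 27 with FPKM values, 19 with separate libraries, 11 with the block, 8 with DESeq2, 2 without the filter and 58 with sample 2 alone. The 15 largest increases kept their calls under every alternative run. Genes with few control counts have fitted fold changes that depend on the prior count; whether depth or the number of samples limits the calls was not compared.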
